A study of Mus musculus with 13 samples.

Results

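The genes described here are the histone methyltransferase gene Setdb2, the Insig genes Insig1 and Insig2, the glucocorticoid receptor gene Nr3c1 and 6 genes that glucocorticoids are known to induce: Tsc22d3, Fkbp5, Tat, Sgk1, Mt1 and Mt2. They are the rows of the authors' deposited liver table whose symbol equals one of these names. All 10 were found among the 11779 genes listed there. The names were chosen from knowledge of the authors' fold changes in the same livers, so the presence and the grouping of these genes is not a finding. The authors' own fold changes and p-values are not used here.

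Livers came from Balb/c mice injected into the tail vein with GalNAc-conjugated antisense oligonucleotides (ASOs), which the liver takes up through a receptor on hepatocytes. A group of 3 mice received the LL35 ASO mix, described in the labels as a mix of 5 ASOs against the long non-coding RNA LL35. The study's text also gives 5 for the liver, but its supplementary list of the ASOs used in mice names fewer. A group of 3 mice received the Luc ASO against firefly luciferase, a gene that mice lack. The dose was 150 mg/kg, which the labels give for each ASO and the study's methods for the mix as a whole, and livers were collected on day 5. The age of the mice is not given in the sources used here, and no uninjected livers were compared. The series also holds 7 samples of AML12 cells, a mouse hepatocyte line, which were not analysed here.

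For each gene the table holds 1 level, the authors' mean normalized count over the compared liver libraries of both groups. This level pools both groups and carries no value for a single mouse, so no error can be given with it, the LL35 ASO and Luc ASO livers are not compared here, and the reads behind each value are unknown. The table's columns of the authors' own comparison of the groups were set aside. No row analysed here belongs to 9030622O22Rik, the LL35 gene, so its knockdown could not be checked from these levels. The study reports, by RT-qPCR, less LL35 RNA in the liver than with the Luc ASO at this dose and day. Mean normalized counts of the listed genes ran from 15.6 to 1217472, with a median of 235. The highest was that of Alb, the gene of serum albumin. All the other 7 hepatocyte markers examined (Ttr, Apoa1, Apob, Hnf4a, Cyp2e1, Cps1 and Ass1) lay at 11991 or above. Of 5 Kupffer cell, 4 endothelial and 4 stellate cell markers all were listed as well, with medians of 408, 926 and 158, while none of 3 cholangiocyte markers and 2 of 4 T cell, B cell and erythroid markers were. The levels are therefore those of whole liver, in which fewer cells of a type and less RNA per cell cannot be told apart.

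Glucocorticoids such as corticosterone cross the cell membrane and bind the glucocorticoid receptor, which waits in the cytoplasm with HSP90 and its partner proteins, moves to the nucleus and binds DNA. In the fasting liver this receptor raises genes of amino acid breakdown and glucose production. SETDB2 belongs to the enzymes that methylate lysine 9 of histone H3, and it has been described in liver as a partner of the glucocorticoid receptor that takes part in the induction of Insig2. INSIG proteins hold the sterol sensor SCAP, and with it the SREBP transcription factors, in the endoplasmic reticulum and so restrain the synthesis of cholesterol and fatty acids.

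The induction of several of these genes is known to run through short DNA elements. Matches to the letters of such elements in the RefSeq promoter windows of build GRCm38.p6 are described here. Whether any match takes part in induction was not tested. The genome build behind the authors' table is not given in the sources used here, so the coordinates belong to the RefSeq windows alone. Each window reaches from 250 bases before an annotated start to 50 bases after it. Windows were found for 9 of the 10 genes, 18 windows in all, and none for Nr3c1. A glucocorticoid pair, that is the half-site AGAACA followed after 3 bases by its reverse complement TGTTCT, occurred in 3 of 32851 windows (0.00913%). One of these windows belongs to Sgk1, a kinase that regulates sodium transport. It is the fifth of the 6 annotated Sgk1 starts, counted in the direction of transcription, and the pair begins 189 bases before that start, at chr10:21993694-21993722 on the + strand with its flanks. The pair is in capitals.
Sgk1: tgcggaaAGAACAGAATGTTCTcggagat
The other windows with the pair are those of Acnat2 and Gm35041, named after their matches were seen.

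The half-site AGAACA, on either strand and whether or not it is part of a pair, was found in 5 of the 18 windows (27.8%), against 19.0% of all windows. Of these 5, 3 belong to Sgk1 and the others to Insig2 and Tsc22d3. In Insig2 the half-site lay 229 bases before the first of its 3 annotated starts, and in Tsc22d3 185 bases before the first of 3. The windows of Setdb2, Fkbp5 and Tat held none of the motifs searched. A sterol response motif, TCACNCCAC, occurred in none of the 18 windows and in 1.24% of all windows. With so low a share of all windows, its absence from 18 says little. These matches are letters only, and a window without one says nothing of sites farther away or of sites spelled differently.

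Metal response cores, written TGCACNC or TGCGCNC and searched on either strand with overlapping matches counted once, occurred 3 times in the Mt1 window and 4 times in the Mt2 window. At least 1 core was found in 6 of the 18 windows (33.3%) against 25.7% of all windows, and the other 4 windows, 1 of Insig1, 2 of Insig2 and 1 of Sgk1, held 1 core each. Of all windows 1.31% held 3 or more. Mt1 and Mt2 encode metallothioneins, small cysteine-rich proteins that bind zinc and copper, and their starts lie 6471 bases apart on the same strand. The cores of both genes that precede the start are shown as examples of the element, and 2 cores of Mt1 and 1 of Mt2 after the start are not shown. The Mt1 core begins 23 bases before the start, at chr8:94179059-94179079, and those of Mt2 begin 223, 128 and 50 bases before it, at chr8:94172388-94172408, chr8:94172483-94172503 and chr8:94172561-94172581, all given on the + strand with flanks. Capitals mark the core, which in the last line is written as its reverse complement.
Mt1: cccgctgTGCACACtggcgct
Mt2, farthest: tcgcctcTGCACCCggcccct
Mt2, middle: gacccttTGCGCTCagctcct
Mt2, nearest: ggagggcGTGTGCAggctctg

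**Figure D1:**
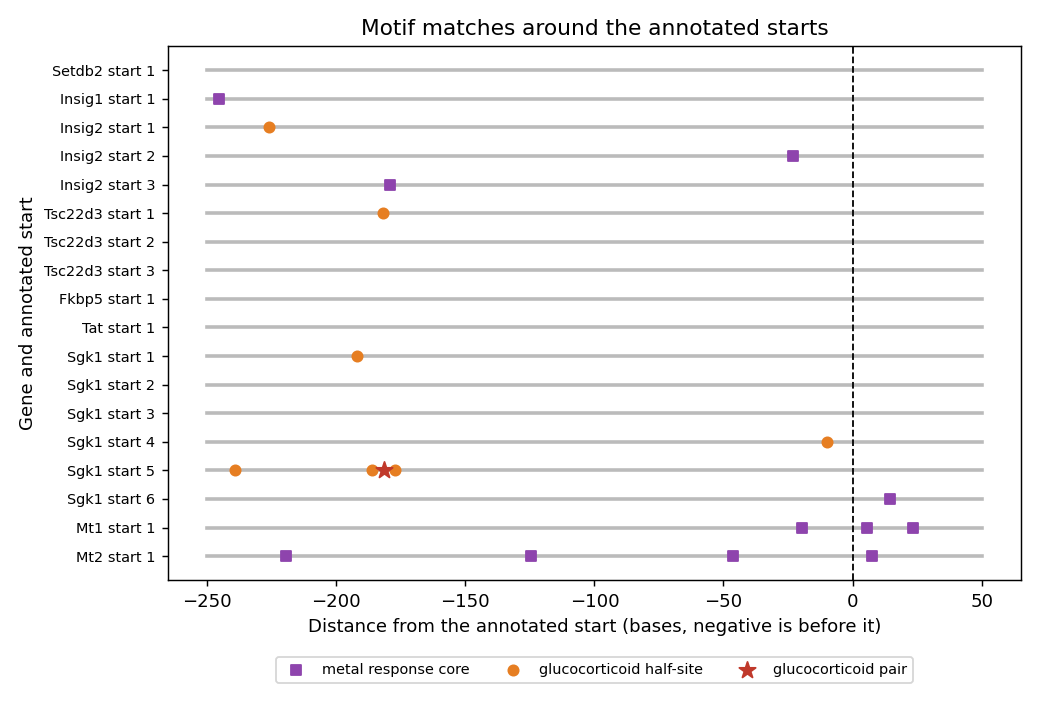
Motif matches in the 18 RefSeq windows of 9 genes, by distance in bases from the annotated start (dashed line, negative before it). Each grey line is 1 window, squares are metal response cores, circles glucocorticoid half-sites and the star the glucocorticoid pair of Sgk1. The 3 cores of Mt1 and 4 of Mt2 stand at the bottom, and no sterol response motif was found.

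The names were chosen with the authors' fold changes in these livers known, and such a choice can favour well-counted genes. High places in the table are therefore not a finding. In the livers, all 10 genes were listed above the median level of the table, and 9 of them above 625, the level that 25% of the table exceeds. Their median mean normalized count was 1902, and the median of their percentiles among the listed genes was 92.7. Tat, the enzyme that opens the breakdown of tyrosine and a classical glucocorticoid-induced gene of hepatocytes, had the highest level of them. Its mean normalized count of 32549 was the 33rd from the top of the table and made up 0.288% of all mean normalized counts, while the 10 genes together made up 0.470%. Fkbp5, a co-chaperone that lowers the affinity of the receptor for hormone, followed with 4602, then Insig2 with 4542 and Mt1 with 3862. These 4 genes were in the top 5% of the table by mean normalized count, which is not corrected for length. After division by the length of the merged exons, as described below, Fkbp5 was at percentile 93.0 and Mt2 at 98.9.

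The middle of the range of mean normalized counts, which are not corrected for length, held the receptor gene, Tsc22d3, Mt2 and Insig1. Tsc22d3, which encodes the anti-inflammatory protein GILZ, had a mean normalized count of 1957 and Mt2 one of 1847. Nr3c1 had 1555, at percentile 90.9. Insig1 had 1066, at percentile 85.6. The lowest were Sgk1 with 630 and Setdb2 with 550, at percentiles 75.2 and 72.0.

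**Figure D2:**
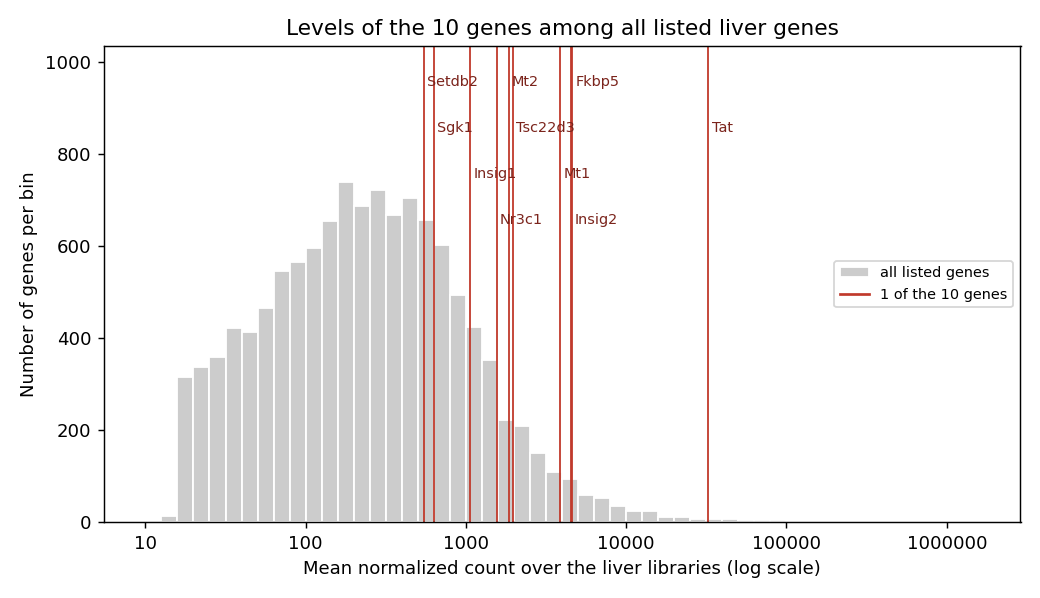
Histogram of the mean normalized counts of the 11779 listed liver genes on a log scale, with a red line at each of the 10 genes. All lines stand to the right of the median of 235, from Setdb2 at 550 to Tat at 32549.

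Long transcripts collect more reads than short ones, so levels were compared between genes after division by the length of the merged exons of the gene in GENCODE M21. On this scale the median of all listed genes was 51.5 per kilobase. Tat had 13534 per kilobase, and then came Mt2 with 3141 and Mt1 with 3100. Mt1 and Mt2 differ 2.09-fold in mean normalized count, but per kilobase of merged exon their ratio was 0.987. It was 0.985 with the longest transcript and 1.20 with the coding sequence. The merged exons of Mt2 span 588 bases and those of Mt1 1246, and the longest coding sequences 228 and 396. These lengths depend on the transcripts annotated for each gene, 3 for Mt1 and 2 for Mt2, and are those of merged exons or the longest model. Which of the transcripts the reads came from is unknown. A ratio near 1 can therefore not be taken as equal levels, nor the 2 coding lengths as those of the transcripts read. How far length accounts for the difference in counts was not tested.

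Insig2 had 1308 per kilobase and Insig1 345, so the level of Insig2 was 3.79 times that of Insig1. Under the other length definitions this ratio was 4.26 (longest transcript) and 4.90 (coding sequence). Insig2 is known to have a liver-specific transcript that starts at a promoter of its own, and GENCODE M21 gives the gene 14 transcripts. The table counts them as 1 gene, so the level of each is unknown.

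Among the glucocorticoid genes, Fkbp5 had 486 per kilobase, Tsc22d3 451 and the receptor gene Nr3c1 202. On this scale Fkbp5 stood 2.40 times as high as the receptor gene, against 4.94 times with the longest transcript and 5.15 times with the coding sequence. Tsc22d3 stood 2.23 times as high, against 2.82 and 4.96 times. Setdb2 with 136 and Sgk1 with 129 were lowest. Tat exceeded Setdb2 99.7 times, against 75.7 times with the longest transcript and 93.0 times with the coding sequence. With no value per mouse, it could not be tested which neighbours in this order differ beyond their spread. Setdb2 and Sgk1 changed places with both other lengths, with 181 and 204 per kilobase of longest transcript and 257 and 401 per kilobase of coding sequence. Mt1 and Mt2 changed places with the coding length.

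**Figure D3:**
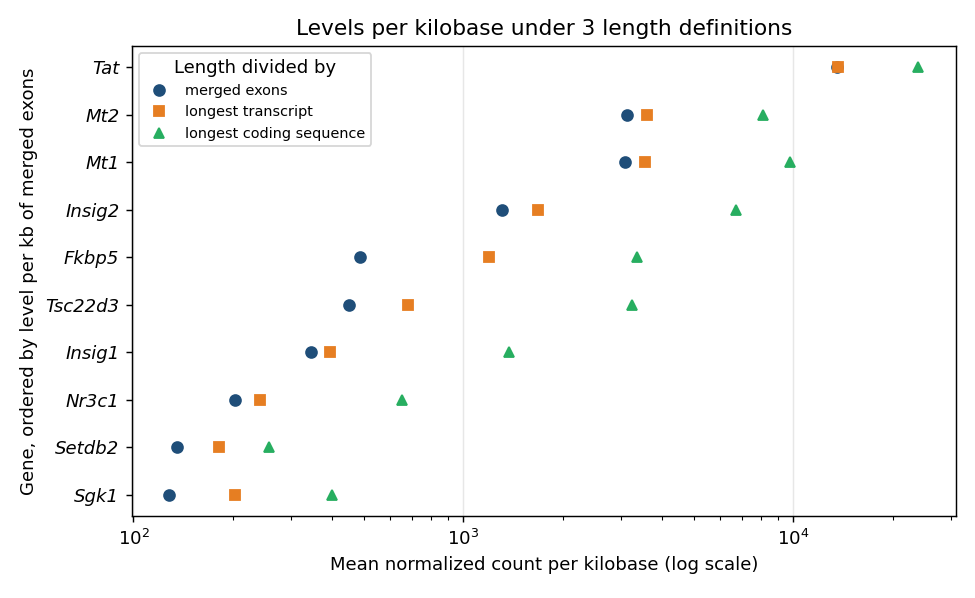
Mean normalized count per kilobase (log scale) of the 10 genes, with the length taken from merged exons (circles), the longest transcript (squares) or the longest coding sequence (triangles). Tat is highest with each length, and the circle and square of Fkbp5, at 486 and 1193, lie farther apart than those of the other genes.

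The level of Setdb2 was set beside 7 listed genes of the same histone mark. In mean normalized count, 5 of them stood above it and 2 below. Setdb1, its closest relative, had 416, and Suv39h1, a methyltransferase of heterochromatin, had 74.2, the lowest of the list. Trim28, the corepressor that brings SETDB1 to chromatin, was highest with 904. Suv39h2 is not among the rows analysed here. Per kilobase of merged exon, Setdb2 with 136 stood above 5 of them, and Trim28 with 217 and Ehmt2 with 141 stood above it. Setdb1 had 60.7 on this scale. With the coding length, 1 of the 7 stood above Setdb2.

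A list of 12 genes around the glucocorticoid receptor (HSP90 and its partners, coregulators and Hsd11b1, an enzyme that regenerates active glucocorticoid) was listed in full, with a median mean normalized count of 1450. Hsp90ab1, the constitutive HSP90 gene, was highest with 11796, and Ncoa1, a coactivator, lowest with 491. Of the 12, 6 stood in the top 10% of the table. Fkbp4, the co-chaperone that competes with Fkbp5 on the receptor, had a mean normalized count of 1510 beside 4602 for Fkbp5. Their order depends on the length, with 540 against 486 per kilobase of merged exon, 564 against 1193 per kilobase of longest transcript and 1099 against 3364 per kilobase of coding sequence.

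A list of 17 other genes known as glucocorticoid targets was listed in full, and 15 stood above the median level of the table. Pck1, the rate-limiting enzyme of gluconeogenesis, was highest with 51002 and Bcl6, a transcriptional repressor, lowest with 128. Their median mean normalized count was 2104 and their median level per kilobase 445. Of these, Pck1 alone had a level per kilobase above that of Tat, at 14874. The range of the list takes in the levels of Tsc22d3, Fkbp5, Tat, Sgk1, Mt1 and Mt2.

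The 11 genes of the SREBP and INSIG pathway that were examined were all listed, with a median mean normalized count of 910. Fasn, the fatty acid synthase, was highest with 3230 and Mbtps2, a protease that releases SREBP factors from the membrane, lowest with 183. Per kilobase of merged exon, Insig2 with 1308 stood above all 11, of which Hmgcs1 with 344, an enzyme of cholesterol synthesis, came nearest. Insig1 had 345 on the same scale. Scap had 251, Srebf1 128 and Srebf2 126 on this scale.

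Of 7 genes of zinc handling and the other metallothioneins, 5 were listed, and Mt3 and Mt4 are not among the rows analysed here. Slc39a14, a zinc importer of hepatocytes, was highest with 6877 and Slc39a10, another importer, lowest with 55.0. Mtf1, the transcription factor that binds metal response elements, had 446, with 50.1 per kilobase of merged exon.

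**Figure D4:**
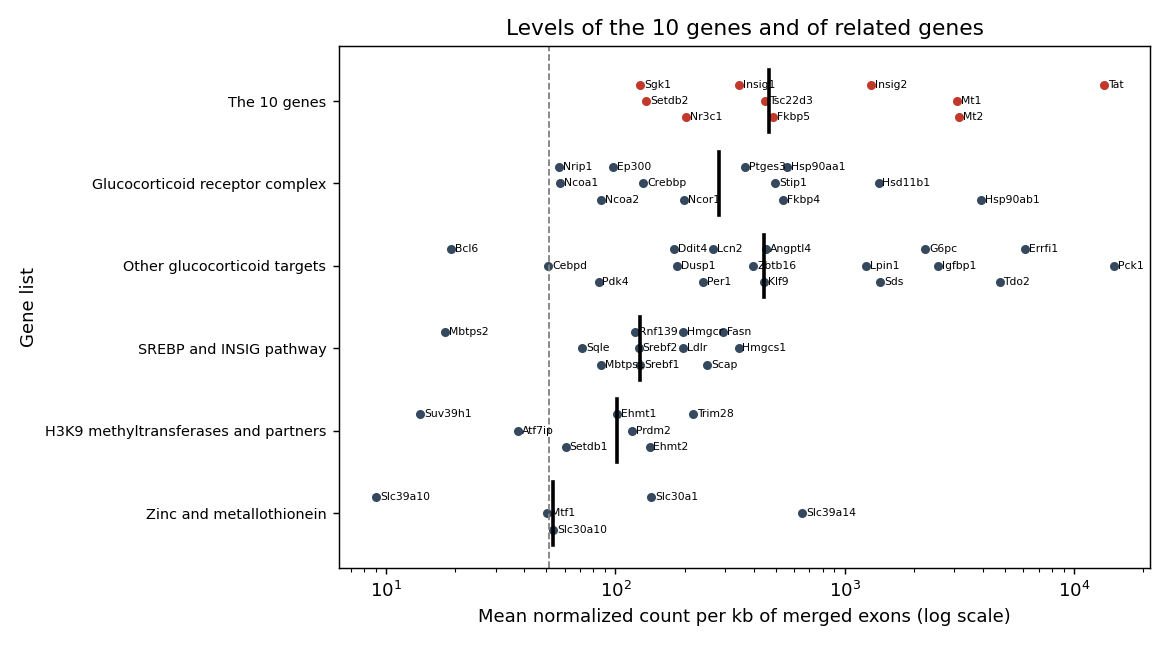
Mean normalized count per kilobase of merged exon (log scale) of the 10 genes (red) and of the listed genes of 5 related lists (blue). Black bars are list medians and the dashed line is the median of all listed genes, 51.5. Tat and Pck1 stand at the far right, and Insig2 lies to the right of the 11 genes of the SREBP and INSIG list.

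Counts of a gene can include or lose reads where its sequence is shared. Of all 50-base stretches in the GENCODE M21 transcripts of Setdb2, Insig2, Tat and Mt1, 0 occurred in a transcript of another gene. The shares were 2.17% for Insig1, 0.684% for Fkbp5, 0.456% for Tsc22d3, 0.243% for Sgk1 and 0.0643% for Nr3c1. In Mt2 the share was 45.8%, all of it with Gm45774, an antisense RNA gene whose exons cover 73.5% of the merged exon length of Mt2 on the opposite strand. The library kit keeps the strand, but which strand setting the authors counted is not given in the sources used here, so the level of Mt2 is less certain than that of Mt1. No stretch of this length was shared between Mt1 and Mt2.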

How the data were processed

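Liver RNA of 3 LL35 ASO and 3 Luc ASO mice was sequenced by the authors with a directional kit, and the submitters' processing notes name STAR 2.5.3a and DESeq2. According to the study's methods, the authors counted reads on Ensembl genes and normalized them by the RLE method. In the table deposited by the authors, 1 signal per gene was used here, its mean normalized count over all compared livers. Its other columns hold the authors' own comparison (fold change, standard error, statistic, p-value and adjusted p-value) and were left out. Per-mouse counts were not analysed here, so the planned test of LL35 ASO against Luc ASO was not run, and depth and precision are unknown.

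The 10 genes and the lists were chosen with earlier results of these data known. Named from each list were the genes with the highest and lowest mean normalized count and those not listed, and others were named after their values were seen. From the lists, 2 genes are not reported here. A percentile is the share of listed genes at or below a value. Lengths came from GENCODE M21, which holds 11754 of the 11779 identifiers. All 32851 RefSeq windows of 300 bases were searched for motifs. Steps ran in Python 3.11.15 with pandas 2.3.3, were tested on simulated data, and figures were drawn with matplotlib 3.10.9.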

Additional observations from a re-analysis of the deposited data

How the results depend on the processing

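Matching on the Ensembl identifiers of GENCODE M21 in place of symbols also found 10 genes. The median percentile of the 10 genes moved from 92.7 to 91.3 when only genes averaging at least 50 normalized counts were ranked, and to 92.8 per kilobase of merged exon. Their median level per kilobase of merged exon was 468, against 937 with the longest transcript and 3304 with the coding sequence. The median percentile on the per-kilobase scale was 92.8, and 94.7 and 97.0 with these 2 lengths. Among protein-coding genes, an alternative chosen after seeing the data, it was 92.9. Of the 45 pairs of genes, 1 changed order with the longest transcript and 2 with the coding sequence. No paired analysis was possible because the table holds no value for a single mouse. For the same reason no alternative normalization, low-count filter on single libraries or left-out mouse was run. What limits every value is the unknown depth and spread.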
